A study of Rattus norvegicus with 50 samples.

Results

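Airway secretory cell genes were followed lung by lung in rats that had inhaled printer-emitted particles (PEPs) or clean air. The set consists of 10 genes, the secretoglobins Scgb1a1, Scgb3a1 and Scgb3a2, the BPI-fold proteins Bpifa1 and Bpifb1, the gel-forming mucins Muc5b and Muc5ac, and Cyp2f4 (a club cell cytochrome P450), Sec14l3 and Reg3g. Each was measured by the probe set whose platform annotation names that gene alone. Of the 10 genes, 8 had such a probe set, 1 each, among 14557 genes so named in the series. Muc5ac and Cyp2f4 were named by 0 probe sets and were not analysed here.

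Lung RNA came from 50 lungs of male Sprague-Dawley rats that were 9 weeks old when bought, hybridised to 1 array each. The rats spent 5 hours a day in whole-body chambers and breathed either HEPA-filtered room air (Air, 25 lungs) or the particles and gases given off by laser printer B1 (PEP, 25 lungs), so that every Air rat also went through chamber housing. Groups are Air_D1, Air_D5, Air_D9 and Air_D21 and PEP_D1, PEP_D5, PEP_D9 and PEP_D21 for days 1, 5, 9 and 21 of exposure, of 5 lungs each except for 6 in Air_D21 and in PEP_D21. Air_D21T and PEP_D21T, of 4 lungs each, are day 21 rats that carried a radio telemetry implant. The tissue label reads lung while a free-text label speaks of blood. Alveolar markers stood high in all 50 lungs, with means of 8 type 2 cell genes such as Sftpc between 11.1 and 11.5 and of 6 type 1 cell genes such as Ager between 11.2 and 11.7, on a log2 scale on which array medians lay between 4.92 and 5.11. In PEP_D1 replicate 1 the mean of 6 hepatocyte genes reached 9.46, against 5.21 to 6.0 in all other lungs. The labels tie no lung to an exposure year or a plate, so no batch could be tested. They do not say that each lung came from a separate rat, and a p-value here refers only to the spread among the arrays.

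Secretory cells line the conducting airways between the ciliated cells. Club cells, the main secretory type of the small airways, release secretoglobins and carry cytochrome P450 enzymes that act on inhaled chemicals, whereas mucous (goblet) cells and glands of larger airways release mucins. BPI-fold proteins are spread over the airway surface, bind lipids and bacterial products, and are made mostly in the nose, the large airways and their glands. The material secreted by these cells forms the mucus layer that cilia move upward, and its composition is a usual readout of inhalation studies. In whole-lung RNA, fewer cells of a type, less RNA per cell and a different share of large airway in the piece extracted cannot be told apart.

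The promoters of the genes that varied most between lungs are shown beside that of the steadiest gene, because the members moved together in the data below. Each run holds the 300 bases around the RefSeq start site, most of them upstream, in the rat build GRCr8, 5′ to 3′, and capitals mark letters of the motifs searched. The motifs, searched on both strands, were TGTTTAC for FOXA, CTTGAG for NKX2-1 and TTGCNNAA for C/EBP, all of them factors of airway epithelium.
Scgb1a1 (chr1:215409637-215409936, minus strand): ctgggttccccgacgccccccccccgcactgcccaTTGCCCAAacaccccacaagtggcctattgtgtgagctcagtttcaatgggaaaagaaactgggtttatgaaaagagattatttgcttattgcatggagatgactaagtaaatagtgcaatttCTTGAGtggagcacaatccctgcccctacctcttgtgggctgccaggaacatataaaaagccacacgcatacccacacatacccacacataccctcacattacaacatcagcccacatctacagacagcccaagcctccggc
Scgb3a1 (chr10:34468916-34469215, plus strand): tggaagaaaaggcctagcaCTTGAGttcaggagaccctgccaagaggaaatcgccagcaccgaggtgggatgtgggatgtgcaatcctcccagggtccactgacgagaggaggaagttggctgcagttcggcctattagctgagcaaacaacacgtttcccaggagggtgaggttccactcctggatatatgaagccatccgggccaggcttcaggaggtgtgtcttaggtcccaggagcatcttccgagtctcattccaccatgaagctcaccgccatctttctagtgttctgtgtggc
Bpifa1 (chr3:163087715-163088014, plus strand): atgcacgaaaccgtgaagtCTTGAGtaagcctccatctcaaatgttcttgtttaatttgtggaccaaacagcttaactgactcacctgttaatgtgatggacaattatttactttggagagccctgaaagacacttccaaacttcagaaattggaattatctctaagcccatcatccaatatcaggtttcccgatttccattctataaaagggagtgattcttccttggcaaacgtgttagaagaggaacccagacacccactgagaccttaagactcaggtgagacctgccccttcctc
Bpifb1 (chr3:163132901-163133200, plus strand): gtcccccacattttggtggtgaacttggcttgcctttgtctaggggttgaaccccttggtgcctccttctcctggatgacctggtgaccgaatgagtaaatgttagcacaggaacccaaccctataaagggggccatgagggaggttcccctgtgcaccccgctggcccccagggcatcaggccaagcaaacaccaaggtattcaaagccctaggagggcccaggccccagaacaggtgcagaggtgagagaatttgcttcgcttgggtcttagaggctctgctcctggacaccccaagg

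Promoters of 8 of the 10 members were found in the RefSeq table, Muc5b and Muc5ac being the ones without an entry. The NKX2-1 letters stood in 4 of the 8 (Scgb1a1, Scgb3a1, Scgb3a2 and Bpifa1) and in 15.8% of 33469 promoters of the same length. The C/EBP letters stood in 1 of the 8, Scgb1a1, against 10.6% of all promoters. The FOXA letters were in 0 of the 8 windows, against 3.78%. The motifs do not overlap in these windows, and a match is a description of letters, not of binding. Bpifa1 and Bpifb1 are neighbours on chromosome 3, with 1 protein-coding gene, Bpifa5, between them, and Muc5ac and Muc5b adjoin each other on chromosome 1.

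The members fell apart by how much they varied. Scgb1a1, the club cell secretory protein and the most abundant product of these cells, was near the top of the array in every lung. Its log2 values lay between 12.2 and 12.8 (mean 12.6), a span of 0.642, and 8 genes had a higher mean. Sec14l3, a lipid-binding protein of the Sec14 family, was also high and steady, at 10.9 to 11.7. Scgb3a2, a secretoglobin of club cells, spanned 2.31 log2 units (8.58 to 10.9). By contrast, Scgb3a1, a secretoglobin found mainly in the mucous cells of larger airways, ran from 4.80 to 12.9, a 267-fold range. Bpifa1 spanned 7.26 log2 units (2.63 to 9.89), Bpifb1 5.69 (4.26 to 9.94) and Muc5b, a gel-forming mucin of the mucus layer, 5.22 (4.49 to 9.71). Reg3g, an antimicrobial lectin, lay below the array median in 50 of 50 lungs, at 2.09 to 3.51.

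For all members but Sec14l3, most of this spread lay within groups. The within-group SD of Scgb3a1 was 2.11, and 3 of the 8202 genes that passed the variance filter had a larger one. Bpifa1 (SD 1.63), Bpifb1 (1.57) and Muc5b (1.28) were exceeded by 13, 14 and 20 genes, while the median gene had an SD of 0.278. Scgb3a2 had an SD of 0.565, Reg3g 0.266, Sec14l3 0.157 and Scgb1a1 0.114. Scgb1a1 and Sec14l3 fell below the variance minimum of 0.05 and were tested in an otherwise identical fit that kept them, so that 6 of the 8 measured members belong to the common test.

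**Figure D1:**
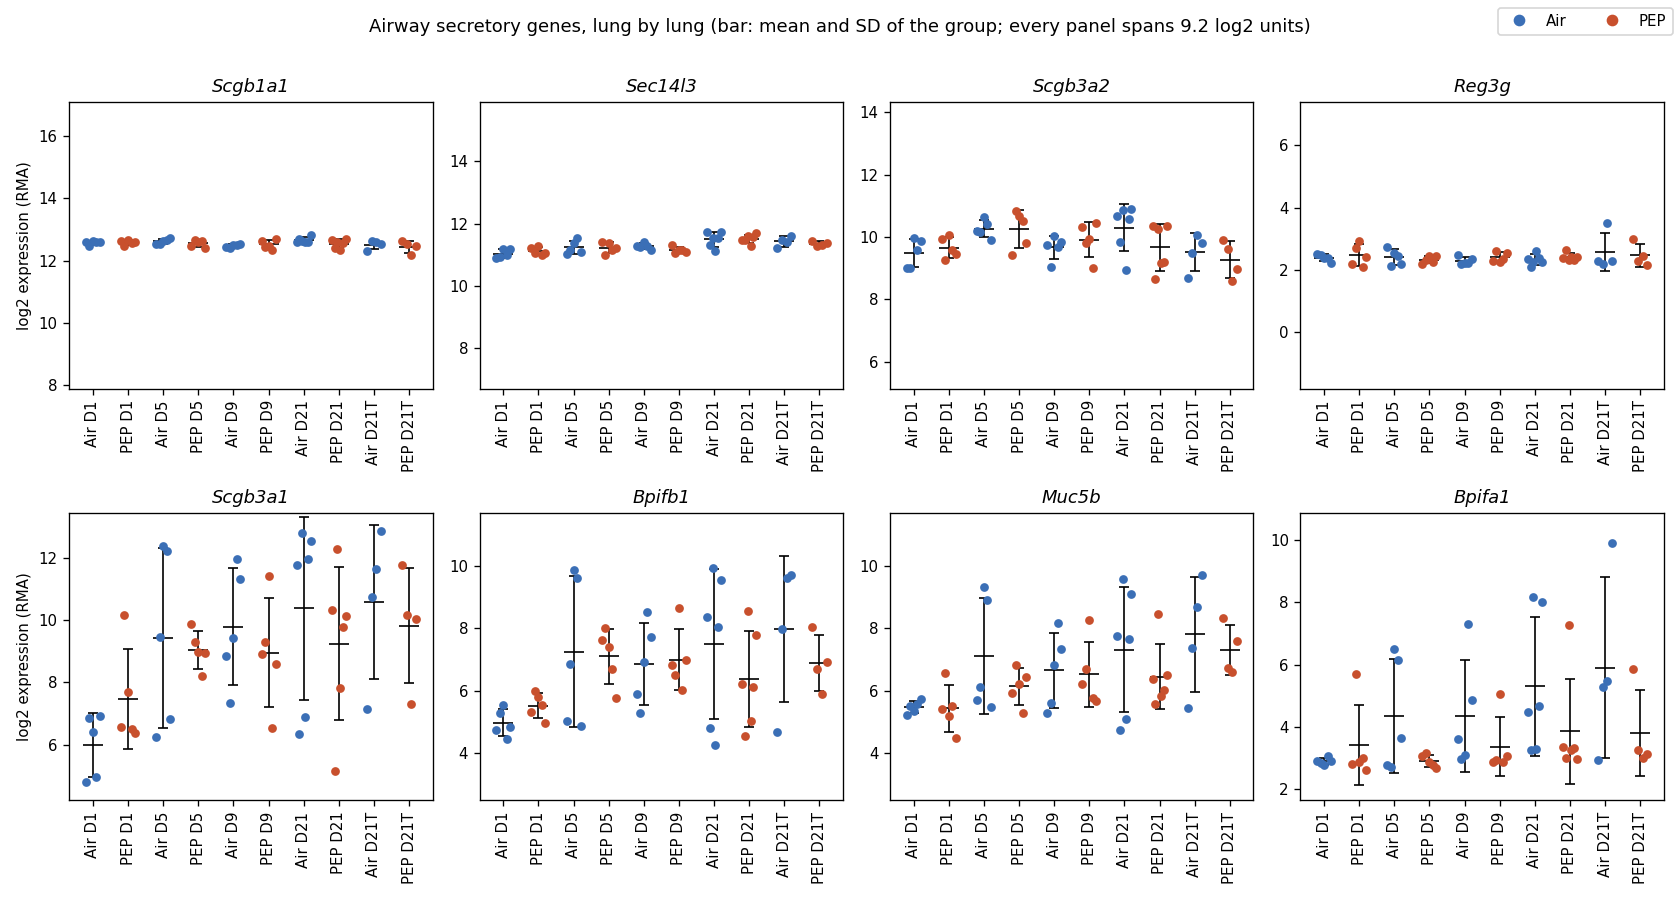
Log2 expression of the 8 measured genes in each of 50 lungs (blue, Air, red, PEP; bar, group mean and SD) by group, all panels on the same span. Scgb1a1 and Sec14l3 stay within 0.850 log2 units, whereas Scgb3a1, Bpifb1, Muc5b and Bpifa1 spread over 5.22 to 8.06 units, and the Air lungs of day 1 lie low for Scgb3a1 and Bpifb1.

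The first question is whether PEP lungs differed from Air lungs of the same day. No member passed the test. Across days 1, 5 and 9, 0 of the 6 members passed at an adjusted p below 0.05 (limma), with a background of 0% of 8202 genes called on each of the 3 days, and 0 members had an unadjusted p below 0.05 there. At day 21, 0 of 6 passed against a background of 0.219%. In the implanted rats 0 of 6 passed against 0.0122%, and in the mean of both day 21 cohorts 0 of 6 against 0.171%. The mean over the 4 days without implant gave 0 of 6 against 0.0244%. The exposure effect did not differ detectably between the 4 days (F test, 0 of 6 members and 0% of genes) or between rats with and without implant (0 of 6 and 0% of genes). PEP and Air lungs overlapped in every cohort for every member, and the share of all genes that overlap was not counted. Leaving out any single lung made 0 members pass in any of these comparisons, and at an unadjusted p below 0.05 the members were Scgb3a2 at day 21 (1 of 6, beside 14.3% of all genes) and Bpifa1 in the implanted rats (1 of 6, 5.58%), in the mean of both day 21 cohorts (1 of 6, 10.4%) and in the mean over 4 days (1 of 6, 9.56%).

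Scgb3a1 gave no fixed direction against its spread. At day 1 the log2 values were 4.80, 6.85, 6.41, 4.96 and 6.92 in Air and 6.57, 10.17, 7.69, 6.50 and 6.38 in PEP lungs, a difference of 1.39 ± 1.10 (SE, adjusted p = 0.806, or 1.51 without PEP_D1 replicate 1, the lung with the hepatocyte signal). PEP_D1 replicate 2 stood above the other lungs of day 1. At day 5 Air lungs read 6.24, 9.46, 12.37, 12.21 and 6.82, and PEP lungs 9.87, 9.29, 8.98, 8.19 and 8.93. The PEP lungs of this day lay between the 2 low and the 2 high Air lungs (-0.88 ± 1.16). At day 9 the values were 8.85, 7.35, 9.43, 11.97 and 11.32 in Air and 8.91, 9.30, 11.43, 6.54 and 8.60 in PEP lungs (-0.81 ± 1.18). At day 21 Air lungs ran from 6.34 to 12.79 with a median of 11.86 and PEP lungs from 5.15 to 12.29 with a median of 9.95, a difference of -1.45 ± 1.14 (adjusted p = 0.595). Both groups held very low and very high lungs. The implanted rats gave 7.13, 10.73, 11.64 and 12.86 in Air and 11.76, 10.16, 7.31 and 10.02 in PEP lungs (-0.90 ± 1.36).

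Bpifb1, a BPI-fold protein secreted with mucus, followed the same lungs. Air lungs read 4.73, 5.28, 5.55, 4.46 and 4.84 at day 1 and PEP lungs 5.32, 6.0, 5.79, 5.53 and 4.97 (0.52 ± 0.81). All 10 lungs of this day were at or below 6.0. At day 5 the values were 5.04, 6.87, 9.89, 9.62 and 4.86 in Air and 7.63, 8.02, 7.40, 6.69 and 5.78 in PEP lungs, with a weighted difference of -0.63 ± 0.85, and at day 9 5.88, 5.30, 6.92, 8.54 and 7.71 in Air and 6.83, 6.49, 8.65, 6.04 and 7.0 in PEP lungs (0.12 ± 0.87). Day 21 lungs ran from 4.26 to 9.94 with a median of 8.21 in Air and from 4.55 to 8.56 with a median of 6.17 in PEP rats, a difference of -1.31 ± 0.84 (adjusted p = 0.499). All PEP lungs lay within the range of the Air lungs, 2 of which were below 5 and 4 above 8. With the implant, Air lungs read 4.69, 7.97, 9.61 and 9.70 and PEP lungs 8.06, 6.70, 5.90 and 6.92 (-1.19 ± 1.00).

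Muc5b was high and low in much the same lungs. At day 1 it stood at 5.23, 5.51, 5.35, 5.57 and 5.75 in Air and 5.41, 6.57, 5.19, 5.50 and 4.49 in PEP lungs (-0.12 ± 0.67). At day 5 the Air lungs split into 2 at 8.92 and 9.32 and 3 at 5.47 to 6.14, while PEP lungs read 5.94, 6.84, 6.20, 5.28 and 6.45 (difference -1.31 ± 0.71, unadjusted p = 0.0711, adjusted p = 0.89). The high lungs here are Air_D5 replicates 3 and 4, which were also the high lungs for Scgb3a1, Bpifb1 and Bpifa1. At day 9 the difference was -0.12 ± 0.72, where Air lungs averaged 6.65 ± 1.19 and PEP lungs 6.53 ± 1.05 (SD, n = 5). Day 21 lungs ran from 4.75 to 9.60 with a median of 7.70 in Air and from 5.57 to 8.46 with a median of 6.19 in PEP rats (-1.08 ± 0.70). Implanted rats had 5.46, 7.39, 8.69 and 9.71 in Air and 8.32, 6.73, 6.59 and 7.60 in PEP lungs (-0.64 ± 0.83).

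Bpifa1, also called SPLUNC1, a surfactant-like defence protein of the upper and large airways, was low in most lungs and high in a few. The file carries no detection call, so a difference from the low lungs is one of RMA values, which may not be above background. Of the 50 lungs 35 lay at or below 3.63 and 15 at or above 4.47, a split at 4 chosen after the values were seen. The 15 high lungs were 11 of 25 Air and 4 of 25 PEP lungs, given as a description. By group they were 0 of 5 Air and 1 of 5 PEP lungs at day 1, 2 and 0 of 5 at day 5, 2 and 1 of 5 at day 9, 4 and 1 of 6 at day 21, and 3 and 1 of 4 with the implant. At day 21 Air values ran from 3.25 to 8.15 with a median of 4.56 and PEP values from 2.96 to 7.27 with a median of 3.28, a difference of -1.61 ± 0.92 (adjusted p = 0.429). In implanted rats the values were 2.94, 5.29, 5.46 and 9.89 in Air and 5.86, 3.26, 2.99 and 3.12 in PEP lungs (-2.37 ± 1.10, unadjusted p = 0.0357, adjusted p = 0.869). A single Air lung, replicate 4 at 9.89, carried much of this difference, which became -0.743 without that lung and lay between -3.60 and -0.743 over all lungs left out singly. The day 21 difference lay between -2.30 and -1.01. The mean over both day 21 cohorts was -1.99 ± 0.72 (unadjusted p = 0.00778, adjusted p = 0.282), the smallest unadjusted p of any member in the exposure comparisons, and lay between -2.61 and -1.18 without single lungs. The mean over the 4 days without implant was -0.94 ± 0.46 (adjusted p = 0.508).

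Scgb3a2 differed most at day 21. There Air lungs ran from 8.96 to 10.90 with a median of 10.63 and PEP lungs from 8.66 to 10.37 with a median of 9.73, a difference of -0.72 ± 0.31 (unadjusted p = 0.0241, adjusted p = 0.274). The groups overlapped, with 1 Air lung, replicate 4, at 8.96 among the low PEP lungs, and the difference lay between -0.94 and -0.52 without single lungs. The day 21 differences of Scgb3a1 (-2.23 to -0.67), Bpifb1 (-1.89 to -0.79) and Muc5b (-1.58 to -0.60) moved more. The differences were 0.09 ± 0.30 at day 1, -0.11 ± 0.31 at day 5, 0.27 ± 0.32 at day 9 and -0.22 ± 0.37 with the implant. Scgb1a1 differed by -0.11 to 0.04 log2 units over the 5 cohorts (SE 0.09 to 0.11), Sec14l3 by -0.12 to 0.06 (SE 0.10 to 0.13) and Reg3g by -0.08 to 0.12 (SE 0.15 to 0.19).

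A rule of a 1.5-fold change, with no test, picked the members of wide spread often. Of the 6 members in the common test, 1 was at least 1.5-fold higher at day 1 (Scgb3a1, against 0.622% of genes) and 4 were at least 1.5-fold lower at day 5 (Scgb3a1, Bpifa1, Bpifb1 and Muc5b, against 0.5%). At day 9 the count was 2 (Scgb3a1 and Bpifa1, against 0.293%), at day 21 it was 5 (those of day 5 and Scgb3a2, against 2.27%), and with the implant it was 4 (those of day 5, against 1.10%). These are weighted differences. By plain differences of group means, a count added after seeing the data, 2 members were lower at day 5 (Bpifa1 and Muc5b, against 0.317% of genes) and 3 with the implant (Bpifa1, Bpifb1 and Scgb3a1, against 0.975%), while 1 was higher at day 1 (against 1.33%), and 2 were lower at day 9 (0.232%) and 5 at day 21 (1.62%). These members share the same high and low lungs, so the counts are not independent of each other, and their SDs are among the largest in the table. The standard errors of Scgb3a1, Bpifa1, Bpifb1 and Muc5b, 0.67 to 1.36 log2 units, were each wider than a 1.5-fold change.

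**Figure D2:**
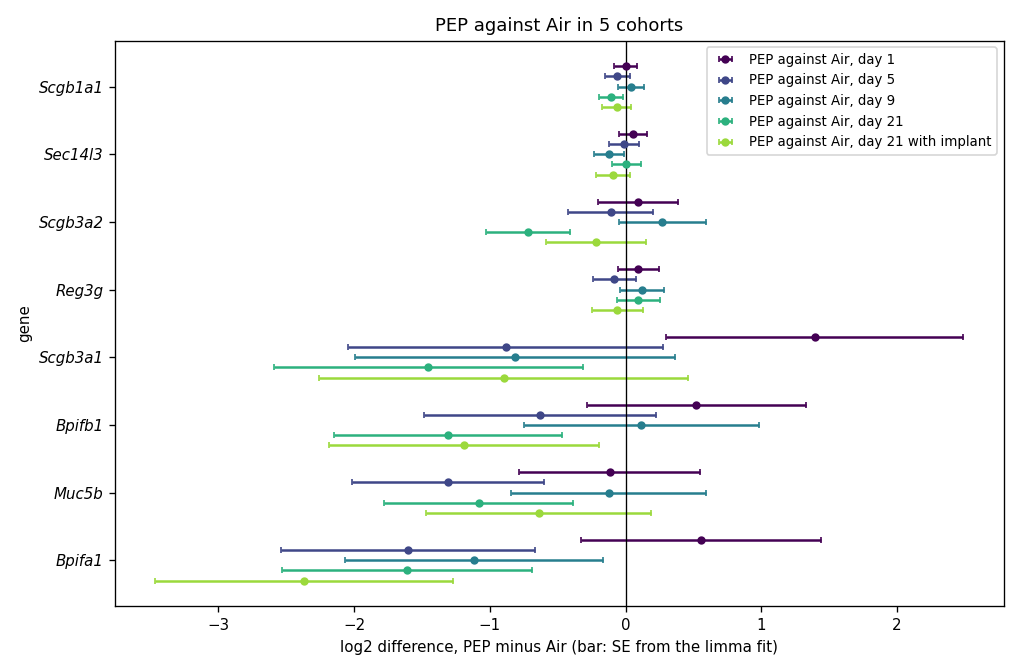
Log2 difference of PEP from Air lungs for 8 genes (rows) in 5 cohorts (colours), with the SE from the limma fit; 0 marks no difference. Scgb1a1, Sec14l3 and Reg3g sit within 0.12 of 0, while Bpifa1 reaches -2.37 ± 1.10 in implanted rats, and 0 of the plotted differences passed the adjusted test.

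Time was the axis on which members did pass. Each day is a separate set of lungs, so a later day also means older rats, more days in chambers and perhaps another run. These cannot be told apart here. Among Air lungs compared across days 1, 5, 9 and 21 (limma F test), 3 of the 6 members passed, Scgb3a1 (adjusted p = 0.00753), Bpifb1 (adjusted p = 0.0306) and Scgb3a2 (adjusted p = 0.0443), where 18.5% of all tested genes did. Muc5b (adjusted p = 0.0819), Bpifa1 (0.167) and Reg3g (0.894) did not. In the fit that kept the steady genes, Sec14l3 passed (adjusted p = 0.0077) and Scgb1a1 did not (0.433). Among PEP lungs 0 of the 6 passed, where 4.82% of genes did, and Sec14l3 passed in the fit that kept it (adjusted p = 0.0218). The difference of the time course between Air and PEP lungs is the F test of the exposure effect given above, which 0 members passed, so the time courses of Air and PEP lungs are not shown to differ.

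Air lungs of day 1 had the lowest means of the 4 days for each gene that passed. The same lungs also had the lowest means of 11 motile cilia genes (6.76) and of 10 cardiac muscle genes (4.01), whose part was not tested. From day 1 to day 21 Scgb3a1 rose in Air lungs by 4.68 ± 1.14 log2 units, from 5.99 ± 1.03 to 10.38 ± 2.94 (SD, n = 5 and 6), and was already 3.80 ± 1.13 above day 1 at day 5. None of the 5 Air lungs of day 1 exceeded 6.92, and 4 of the 6 of day 21 exceeded 11.7. Bpifb1 rose by 2.82 ± 0.84, from 4.97 ± 0.44 to 7.5 ± 2.41, with 2 Air lungs of day 21, at 4.26 and 4.80, within or below the range of day 1. Scgb3a2 rose by 0.89 ± 0.31, from 9.49 ± 0.45 to 10.30 ± 0.76, but stood at 9.67 ± 0.37 at day 9. Sec14l3 rose by 0.48 ± 0.11, from 11.04 ± 0.14 to 11.50 ± 0.24, and in PEP lungs by 0.43 ± 0.10, from 11.12 ± 0.12 to 11.52 ± 0.13. Muc5b, which did not pass, differed by 2.05 ± 0.69 in Air lungs. Bpifa1, which did not pass either, read 2.76 to 3.05 in Air lungs of day 1 and 3.25 to 8.15 in those of day 21. The PEP differences from day 1 to day 21 were 1.84 ± 1.10 for Scgb3a1, 0.99 ± 0.81 for Bpifb1, 1.09 ± 0.67 for Muc5b and 0.08 ± 0.30 for Scgb3a2.

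These time results rest on single days and lungs to different degrees. With day 1 left out, an alternative added after seeing the data, 0 members passed in Air lungs, and adjusted p was 0.795 for Scgb3a1, 0.692 for Bpifb1, 0.155 for Scgb3a2 and 0.155 for Sec14l3. With day 21 left out these values were 0.052, 0.101, 0.19 and 0.278. The calls of Scgb3a1 and Sec14l3 in Air lungs held without each of the 21 Air lungs in turn (highest adjusted p 0.0315 and 0.0357), whereas that of Bpifb1 was lost on leaving out each of 8 lungs (adjusted p up to 0.0781) and that of Scgb3a2 on leaving out each of 12 (up to 0.104). In PEP lungs the call of Sec14l3 was lost without replicate 3, 5 or 6 of PEP_D21, without day 1 (0.101) and without day 21 (0.693). With equal weights for all arrays Bpifb1 (adjusted p = 0.119) and Scgb3a2 (0.122) were lost and Scgb3a1 was kept (0.0244). Scgb3a2 was also lost without the variance filter (0.0571), with robust moderation (0.0524) and with day 5 left out (0.0587), Bpifb1 with robust moderation (0.0572) and with only the Air groups fitted (0.0794), and Sec14l3 with only those groups (0.0561). Muc5b, which did not pass with all lungs, passed on leaving out each of 4 of the 21 Air lungs (adjusted p down to 0.025).

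The wider airway lists differed in how many of their genes passed across days, beside 18.5% of all tested genes in Air and 4.82% in PEP lungs. Of 10 tested motile cilia genes 10 passed across days in Air lungs and 0 in PEP lungs. Of 12 tested club cell enzyme genes 6 passed in Air lungs, among them Aldh1a1, a retinal dehydrogenase (9.92 ± 0.22 at day 1, 10.8 ± 0.350 at day 21, adjusted p = 0.000141), and Ephx1, an epoxide hydrolase (9.03 ± 0.45 and 10.1 ± 0.427, adjusted p = 0.000437). Gsta1, a glutathione transferase (8.26 ± 0.21 and 8.88 ± 0.27, adjusted p = 0.000359), Pon1, Cyp2s1 and Fmo2 were the others, and 3 passed in PEP lungs (Gsta1, Fmo2 and Sult1a1). Of 16 tested mucin and goblet cell genes 3 passed, a share close to that of all genes, with Agr2, a disulfide isomerase needed for mucin folding in mice, at 6.42 ± 0.66 on day 1 and 8.69 ± 1.14 on day 21 (adjusted p = 0.000767). Creb3l1, a membrane-bound transcription factor of the secretory pathway, went the other way (7.31 ± 0.34 to 6.24 ± 0.19, adjusted p = 9.87e-05). Galnt6 was the third and was also lower at day 21 (6.38 ± 0.23 to 6.01 ± 0.39). In PEP lungs 1 of the 16 passed, Creb3l1. Tspan1, Cdh26, Wfdc2 and Lypd2 of 10 tested other airway surface genes passed, as did Sox2, a transcription factor of airway epithelium (5.74 ± 0.30 to 7.10 ± 0.77, adjusted p = 0.00217), and Notch3 of 6 tested transcription factors. In PEP lungs 0 of the surface genes and 1 of the transcription factors, Notch3, passed. Of 10 secretoglobin and BPI-fold relatives 0 passed, and of 10 secreted antimicrobial genes 1 did, S100a8, with 0 of either list in PEP lungs. S100a8 was lower in Air lungs at day 21 (5.48 ± 0.52 to 4.54 ± 0.53). The exposure effect across days was called for 0 genes of these lists, so the time courses of Air and PEP lungs are not shown to differ. At an unadjusted p below 0.05, beside 7.99% of all genes, stood 6 of 10 cilia and 4 of 12 club cell enzyme genes, shares above that of all genes. So did 2 of 16 mucin and goblet cell and 1 of 10 antimicrobial genes, and 0 of the relatives, surface genes and transcription factors. Genes of a list can share the same high and low lungs, so these counts are not independent, and no list was tested as a set. S100a8 is also a neutrophil gene. In Air lungs 5 of 9 neutrophil and 7 of 9 T cell markers passed across days, with neutrophil means of 5.87 ± 0.19 in Air_D1 and 5.03 ± 0.28 in Air_D21, and their part was not tested. In PEP lungs 0 of 9 passed in each list. Galnt6 lost its call in 22 of 33 alternatives and Fmo2 in 16 of 33 in Air lungs. With day 1 left out, Gsta1 (adjusted p = 0.00149), Notch3 (0.00666), Creb3l1 (0.00696), S100a8 (0.0144) and Fmo2 (0.0382) still passed and the other 11 of these 16 genes did not. With day 21 left out, only Aldh1a1 (0.021) and Agr2 (0.0471) of the 16 passed. All 5 calls named in PEP lungs were lost with day 21 left out (adjusted p 0.285 to 0.766), where 17 of all tested genes passed in place of 395. That of Sult1a1 was also lost with day 5 left out (0.111).

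Against exposure the same lists gave few calls. In the mean of both day 21 cohorts 2 of 12 club cell enzyme genes were called higher and 0 lower, where 0.171% of all tested genes were called. Called or not, 7 of the 12 were higher and 5 lower in PEP lungs. Their log2 differences lay between -0.545 and 0.494 (median 0.0822), so the list as a whole did not move in 1 direction. Sult1a1, a phenol sulfotransferase, stood at 10.68 ± 0.127 in Air_D21 and 11.05 ± 0.0951 in PEP_D21 lungs (SD, n = 6) and at 10.48 ± 0.172 and 10.98 ± 0.132 with the implant (n = 4), with PEP and Air lungs apart in both cohorts (log2 difference 0.43 ± 0.09, adjusted p = 0.022). Fmo2, the flavin monooxygenase of lung, stood at 11.8 ± 0.127 and 12.3 ± 0.117 without and at 11.7 ± 0.331 and 12.1 ± 0.249 with the implant (0.49 ± 0.11, adjusted p = 0.0403). For Fmo2 the lungs were apart without the implant (Air up to 11.94, PEP from 12.14) and overlapped with it. How many of all genes separate in this way was not counted. Fmo2 lost its call in 16 of 28 alternatives (adjusted p 0.0149 to 0.129) and Sult1a1 in 6 of 28 (0.00803 to 0.0966). Of the other airway lists 0 genes passed in any exposure comparison, and the closest neighbour gene Bpifa5 differed by -0.75 ± 0.28 at day 21 (adjusted p = 0.206).

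The implant was compared within Air and within PEP lungs of day 21. It moved 0 of 6 members in Air lungs (6.91% of genes called) and 0 of 6 in PEP lungs (3.80%). Scgb3a2 had the smallest unadjusted p, with 8.68, 9.48, 10.07 and 9.82 in implanted Air lungs and values from 8.96 to 10.90 with a median of 10.63 without implant (-0.89 ± 0.34, adjusted p = 0.104), and passed without Air_D21 replicate 4 (-1.11, adjusted p = 0.0336). From the lists, Wfdc21, a secreted WAP-domain protein, rose with the implant in Air lungs (6.26 ± 0.30 to 7.23 ± 0.36, log2 difference 0.94 ± 0.23, adjusted p = 0.00803) and in PEP lungs (5.63 ± 0.46 to 7.03 ± 0.37, 1.38 ± 0.22, adjusted p = 0.00015), with no overlap of implanted and other lungs in either. Itln1, an intelectin, rose in Air lungs (3.31 ± 0.29 to 4.76 ± 1.19, adjusted p = 0.000197), with 1 of 4 implanted lungs inside the range of the others. Galnt6, Chad and Plac8 also rose and Lypd2 fell in Air lungs, while Creb3l1, Notch3 and Hes1 rose and Gsta1 and Akr1c14 fell in PEP lungs. Of these, Lypd2 lost its call in 11 of 18 alternatives, Chad in 8 of 18, Hes1 in 6 of 18 and Notch3 in 5 of 17. The called genes came from 16 tested mucin and goblet cell genes (Itln1, Galnt6, Creb3l1) and 12 club cell enzyme genes (Gsta1, Akr1c14). The rest came from 10 surface genes (Chad, Lypd2), 10 antimicrobial genes (Wfdc21, Plac8) and 6 transcription factors (Notch3, Hes1). They stand beside 6.91% of all genes called in Air and 3.80% in PEP lungs. How many of all genes separate as Wfdc21 did was not counted. Leukocyte markers moved with the implant too. In Air lungs 9 of 9 T cell markers were higher, 7 of them called (median log2 difference 0.81), and the mean of the list ran from 5.47 to 5.99 without and 6.36 to 6.91 with the implant. Of 9 neutrophil markers 9 were higher and 4 called (median 0.63), with means of 4.69 to 5.45 and 5.17 to 5.89. In PEP lungs 9 of 9 of each were higher and 0 called (median 0.36 and 0.41). Their part in the changes of the secreted proteins was not tested.

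Because much of the spread lay within groups, the members were compared over the 50 lungs with group means removed. Bpifb1 and Muc5b gave a Pearson r of 0.922 and a Spearman rho of 0.875 (each p = 1e-05 by permutation of lungs within groups, the smallest that 100000 draws can give, adjusted p = 4e-05 and 3.5e-05 over the 28 pairs computed). Without the 2 lungs farthest from the median r was 0.907, and it was 0.969 within Air and 0.766 within PEP lungs. Scgb3a1 gave r = 0.916 with Bpifb1 (rho 0.9, 0.919 without the 2 farthest lungs, 0.968 in Air and 0.827 in PEP) and r = 0.889 with Muc5b (rho 0.861, 0.897 without them, 0.939 and 0.799), with the same smallest p. Lungs above their group mean in any of these 3 genes tended to be above it in the others.

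The club cell secretoglobins formed a looser pair. Scgb1a1 and Scgb3a2 gave r = 0.718 and rho = 0.753 (permutation p = 1e-05 for each, the smallest possible, and 0.679 without the 2 farthest lungs), with 0.467 in Air and 0.88 in PEP lungs, a difference that was not tested. Scgb3a2 gave 0.636 with Scgb3a1 and 0.682 with Bpifb1. Sec14l3 gave 0.594 with Scgb3a1, 0.65 with Bpifb1 and 0.561 with Muc5b, and each of these was higher within Air (0.766, 0.768 and 0.734) than within PEP lungs (0.275, 0.358 and 0.13), again untested as a difference. Among these 6 genes all 15 pairs were positive, 14 passed the adjusted permutation test by r and 12 by rho. Of 6 pairs with Reg3g 0 passed (r from -0.044 to 0.114).

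Since 35 of the Bpifa1 values lie at or below 3.63 and may not be above background, no pooled correlation is given for it. In its 15 high lungs Scgb3a1 was at 10.2 to 12.9 (median 11.9) and in the other 35 at 4.80 to 10.3 (median 7.69). Muc5b was at 6.57 to 9.71 (median 8.32) against 4.49 to 7.60 (median 5.71), and Bpifb1 at 6.0 to 9.94 (median 8.56) against 4.26 to 8.02 (median 5.79). For Scgb1a1 the medians were 12.6 and 12.6, with ranges of 12.5 to 12.8 and 12.2 to 12.7. The high Bpifa1 lungs were lungs of high Scgb3a1, and overlapped the rest in Scgb1a1.

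**Figure D3:**
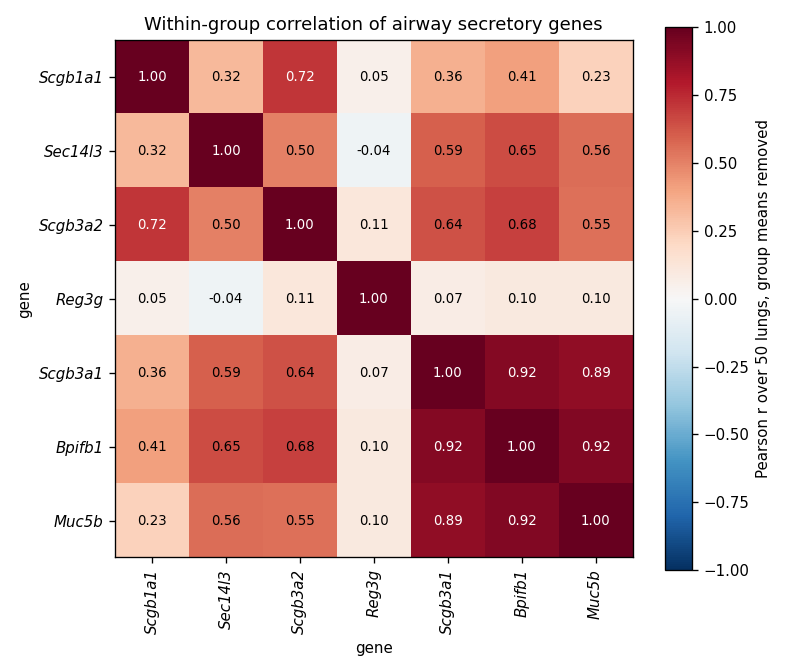
Pearson r over 50 lungs, after group means were removed, for each pair of 7 genes (axes, with colour from -1 to 1). Bpifa1 is left out because 35 of its 50 values lie at or below 3.63 and may not be above background. Scgb3a1, Bpifb1 and Muc5b form a block of 0.889 to 0.922, Scgb1a1 pairs best with Scgb3a2 at 0.718, and Reg3g stays between -0.044 and 0.114.

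The genes most like each member over these 50 lungs, among all genes past the variance filter and outside the members, are given as description. For Scgb3a1 they were Chst9 (r = 0.895), a carbohydrate sulfotransferase, Gp2 (0.884), a membrane glycoprotein of secretory granules, and Agr2 (0.878). Bpifb1 had the same 3 (0.926, 0.923 and 0.893), and Muc5b had Gp2 (0.919), Chst9 (0.87) and Scin (0.85), an actin-severing protein. Gp2 ranged from 3.08 to 9.18 and Agr2 from 5.56 to 9.85 over the lungs. For Scgb3a2 the nearest genes were Cfap161 (0.907), Dnaaf3 (0.894) and Riiad1 (0.892), the first 2 being genes of cilia and flagella, and 94 genes exceeded an r of 0.8 with it. Scgb1a1 was closest to Lrrc23 (0.675), Tmem107 (0.673) and Strbp (0.672), and Sec14l3 to Slc2a12 (0.743), Clic6 (0.706) and Rsph1 (0.704), a radial spoke gene. Reg3g was closest to Capn13 (0.64), Irf8 (0.544) and Pou2af1 (0.533).

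Markers of other cells moved with the members and are given beside them. Over the 50 lungs the mean of 11 motile cilia genes gave r = 0.859 with Scgb3a2 (rho 0.855, and r = 0.834 without the 2 farthest lungs), 0.823 with Bpifb1 (0.806 and 0.808), 0.799 with Scgb3a1 (0.753 and 0.795) and 0.717 with Muc5b (0.696 and 0.708). The mean of 10 cardiac muscle genes gave r = 0.81 with Scgb3a1 (rho 0.814, and 0.82 without the 2 farthest lungs), 0.785 with Muc5b (0.779 and 0.776), 0.778 with Bpifb1 (0.774 and 0.772) and 0.484 with Scgb3a2 (0.427 and 0.443). The steady genes gave lower values with the cilia mean, r = 0.599 for Scgb1a1 (rho 0.561, and 0.513 without the 2 farthest lungs, adjusted p = 0.00072 and 0.0016) and 0.654 for Sec14l3 (0.655 and 0.613, adjusted p = 0.000267 and 0.0003). With the cardiac mean Sec14l3 gave 0.463 (0.453 and 0.477, adjusted p = 0.0108 and 0.0154) and Scgb1a1 0.261, which did not pass. Each of the 8 relations of Scgb3a1, Scgb3a2, Bpifb1 and Muc5b passed the permutation test adjusted over the 80 computed, with adjusted p from 0.000114 to 0.0108 by r and from 0.000133 to 0.0226 by rho. Basal cell markers gave lower values, r = 0.488 with Scgb3a1 (rho 0.48, and 0.485 without the 2 farthest lungs), 0.507 with Bpifb1 (0.512 and 0.441) and 0.508 with Muc5b (0.49 and 0.408), which passed with adjusted p from 0.0068 to 0.0118. Alveolar type 2 genes gave r from -0.161 to -0.052 with Scgb1a1, Scgb3a1, Scgb3a2, Bpifb1, Muc5b and Sec14l3, and airway cartilage genes -0.110 to 0.091. The mean of 5 cartilage genes lay between 3.36 and 3.88 in all lungs, below the array medians of 4.92 to 5.11. Of 8 type 2 genes 1 passed the variance filter. With so little signal or spread, low r values here cannot show whether cartilage or alveolar tissue followed the members.

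The cardiac mean lay between 3.95 and 8.17 in Air_D21 and between 3.78 and 7.55 in PEP_D21 lungs, between 4.56 and 9.30 in Air_D21T and between 3.71 and 8.80 in PEP_D21T lungs, and between 3.70 and 4.6 in Air_D1 lungs. At day 21 10 of 10 cardiac genes were negative in PEP lungs (median log2 difference -1.50, 0 called, 1 at an unadjusted p below 0.05). With the implant 10 of 10 were negative (median -2.11, 0 called, 10 unadjusted). Over all tested genes these medians were -0.02 and 0.03. An unadjusted p below 0.05 was reached by 14.3% of all tested genes at day 21 and by 5.58% with the implant. The mean of the cilia genes was 6.76 ± 0.38 in Air_D1, 7.92 ± 0.61 in Air_D21 and 7.34 ± 0.56 in PEP_D21 lungs, and at day 21 10 of 10 tested cilia genes were negative (median -0.67, 0 called, 7 unadjusted). With the implant 7 of 10 cilia genes were negative (median -0.05), and the list means were 7.68 ± 0.64 in Air and 7.68 ± 0.44 in PEP lungs. Basal cell markers had a median of 0.09 at day 21 (3 of 6 negative, 0 called) and 0.08 with the implant (1 of 6 negative, 0 called). The mean of 9 T cell markers was 5.79 ± 0.20 in Air_D21 and 6.29 ± 0.15 in PEP_D21 lungs, with 2 of the 9 called higher. Of all tested genes 0.219% were called in that comparison, in either direction. The part of airway, ciliated, cardiac and T cell material in the differences of the secretory genes was not tested.

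**Figure D4:**
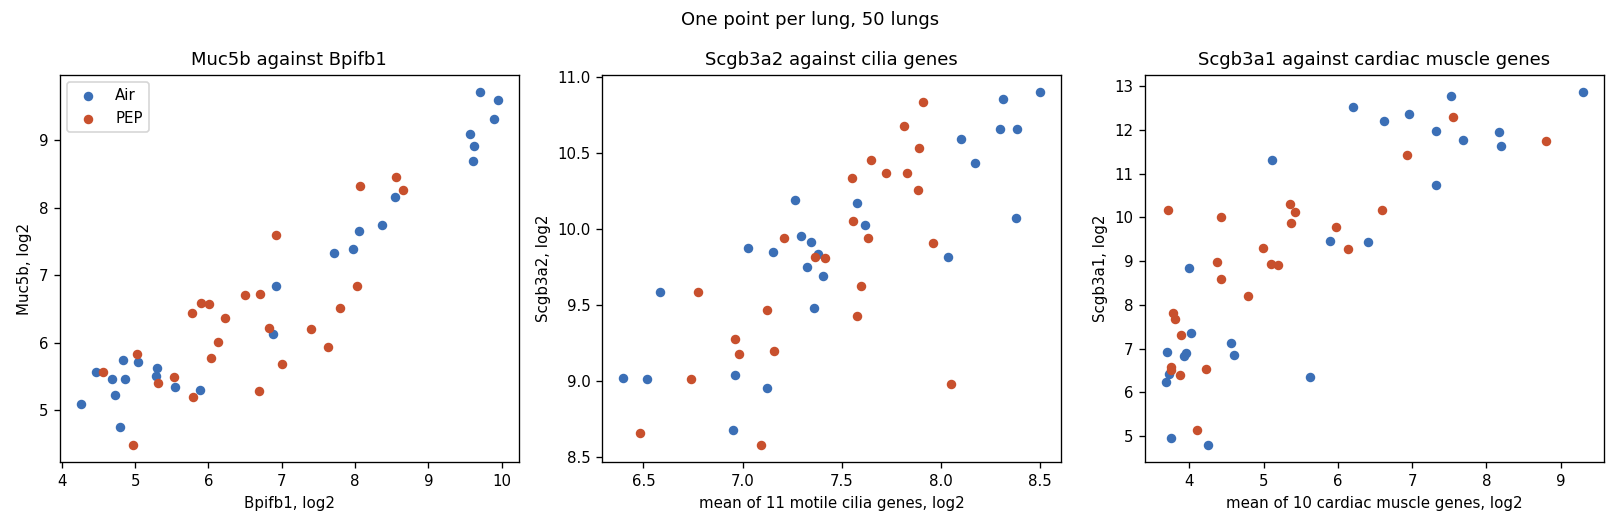
One point per lung (50 lungs; blue, Air, red, PEP), in log2 units: Muc5b against Bpifb1, Scgb3a2 against the mean of 11 motile cilia genes, and Scgb3a1 against the mean of 10 cardiac muscle genes. The points rise together in each panel, with within-group r of 0.922, 0.859 and 0.81, and Air and PEP lungs lie along the same clouds.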

How the data were processed

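RNA of 50 lung samples was profiled on Affymetrix Rat Gene 2.1 ST arrays. The authors deposited log2 expression values of 36685 probe sets, made by RMA, which corrects background, quantile-normalises and summarises probes. The submitters' processing notes name oligo, RMA, limma and R 3.4. The platform annotation gave 1 gene to 14824 probe sets, several to 829 and none to 21032, and the brightest probe set with 1 gene stood for each of 14557 genes.

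From these values, limma 3.58.1 in R 4.3.3 fitted 1 model with 10 groups, array weights of 0.590 to 1.71 and moderated variances, on 8202 genes with a variance of at least 0.05 over all arrays. Fitted differences therefore depart from plain differences of means, being -0.88 against -0.37 for Scgb3a1 and -0.63 against -0.15 for Bpifb1 at day 5. P-values were adjusted by Benjamini-Hochberg within each comparison and called below 0.05. Scgb1a1 and Sec14l3 were below the variance minimum and were fitted alongside. The fit and the correlations were tested on simulated data. Quantile normalisation removes array-wide shifts, and the number of arrays limits the precision.

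Named genes were the members, the 3 genes most correlated with each, list genes that passed, and otherwise up to 3 of a list with the largest statistic. The members and lists were chosen with earlier results of these data known. Alternatives changed the weights, filter, centring, moderation, features, samples fitted and lungs included.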

Additional observations from a re-analysis of the deposited data

Results flagged for a closer look

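In 80 sets of values (8 genes in 10 groups), 8 held a lung that stood far from the rest of its group by Dixon's criterion, 7 at the high end and 1 at the low end. Chance alone gives such a lung in about 1 of 20 sets of normally distributed values. That rate need not hold for Bpifa1, most of whose values may not be above background. Bpifa1 did so in 4 PEP groups, each with a single high lung. The criterion seldom flags a group with several high lungs, and Air_D5, Air_D9, Air_D21 and Air_D21T held 2, 2, 4 and 3 lungs above 4. PEP_D1 replicate 2 read 5.69 with the next lung at 3.01, PEP_D9 replicate 3 read 5.05 against 3.07, PEP_D21 replicate 3 read 7.27 against 3.35 and PEP_D21T replicate 1 read 5.86 against 3.26. Muc5b stood apart in 1 of the same lungs, PEP_D21 replicate 3, at 8.46 with the next lung at 6.51. Reg3g was high in PEP_D21 replicate 2 (2.65, next 2.43) and in Air_D21T replicate 3 (3.51, next 2.31). Scgb1a1 was low in Air_D1 replicate 2, at 12.48 with the next lung at 12.59.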

How the results depend on the processing

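Of 2298 values recomputed for 81 results of the tests on members, 2201 kept their direction and their side of the threshold, 43 lost and 6 gained a call, and 48 changed sign. In the exposure comparisons 0 of 1352 member values passed. The number of members called across days in Air lungs, 3, became 1 with equal array weights, 1 with robust moderation and 1 to 4 without single lungs. It became 0 with day 1 left out and 0 with day 21 left out, alternatives chosen after seeing the data. Across days in PEP lungs it became 1 without the variance filter, and for the implant in Air lungs 0 to 1 without single lungs. The numbers of lungs limit these tests, and the causes were not tested.

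None of the results whose sign changed had passed a test. Reg3g in the mean of both day 21 cohorts became -0.00144 with equal array weights and ran from -0.0661 to 0.150 without single lungs. With each array centred on its median, Scgb1a1 at day 1 was -0.0280 and Sec14l3 at day 5 was 0.000173. The correlation of Scgb1a1 and Reg3g was -0.025 without the 2 lungs farthest from the median. Without single lungs, the day 1 differences ran from -0.0526 to 0.225 for Scgb3a2, -0.077 to 0.864 for Bpifa1, -0.446 to 0.227 for Muc5b, -0.00400 to 0.200 for Reg3g and -0.0285 to 0.0319 for Scgb1a1. Those of day 5 ran from -1.90 to 0.135 for Scgb3a1, -0.278 to 0.148 for Scgb3a2, -1.41 to 0.271 for Bpifb1 and -0.0910 to 0.0923 for Sec14l3. Those of day 9 ran from -0.398 to 0.677 for Bpifb1 and -0.537 to 0.384 for Muc5b, and that of Sec14l3 from -0.0563 to 0.0596 at day 21 and from -0.0371 to 0.00879 in the mean over 4 days. With the implant they ran from -2.15 to 0.161 for Scgb3a1, -0.519 to 0.0359 for Scgb3a2, -1.57 to 0.273 for Muc5b, -0.227 to 0.206 for Reg3g and -0.129 to 0.0300 for Scgb1a1.

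Counts over all genes moved more. At day 21 the 18 genes called became 37 with equal weights, 45 without the variance filter, 0 when only the compared groups were fitted and 1 to 37 without single lungs. The 14 of both day 21 cohorts became 25 without the filter, 0 with only the compared groups and 0 to 78 without single lungs, and the 2 of the mean over 4 days became 33 without the filter. Without the filter the counts were 2564 across days in Air and 745 in PEP lungs, and 951 and 681 for the implant in Air and PEP lungs, which became 277 and 101 with only the compared groups fitted. With the replicate block, day 1 gave 3 genes, and Sec14l3 across days in PEP lungs (adjusted p = 0.0711) lost its call, as did Sult1a1 (0.0681) and Fmo2 (0.061) in the mean of both day 21 cohorts. Over all 25 pairs the deviations of same-numbered Air and PEP lungs correlated at -0.356 to 0.286, so the numbers were not taken to pair the lungs. At day 21 all 6 pairs were positive (0.0532 to 0.286, 4 of them over 0.1) and 6 of 12 lungs correlated best with their own number, a hint from the data only. A block on the numbers in those 12 lungs alone, chosen after seeing the data, called 0 members and 2 genes, with adjusted p of 0.0905 for Bpifb1, 0.0912 for Scgb3a1 and 0.118 for Scgb3a2.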
